A study of Mus musculus with 12 samples.

Results

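Tmem119, Sall1, Siglech, Olfml3, Sparc, Slc2a5, Selplg, Cst3 and Mef2c are 9 genes that resident microglia, the macrophages of the brain, express at high level in the healthy tissue. They were taken from the deposited table of normalized counts by gene symbol, as microglia identity genes other than the purinergic receptors and Csf1r. All 9 members were found among the 54547 genes of that table, and all 9 passed the filter on low values that left 29835 genes for testing. Cells were sorted from mouse brain tissue by GFP or CD11b, and their RNA was read in 12 libraries, 3 in each of 4 groups, on a 129;C57BL/6 mix background. Tumors of Msi1-CreER;RasV12 mice gave the RasV12 GFP+ and RasV12 CD11b+ libraries, and the cerebellum of Msi1-CreER;GFP mice gave the Control GFP+ and Control CD11b+ libraries. Every group carried Msi1-CreER, an inducible Cre recombinase named for Msi1, whose RNA-binding product is found in neural stem and progenitor cells, and RasV12 is an oncogenic form of Ras. CD11b, the integrin subunit encoded by Itgam, marks microglia, macrophages, monocytes and neutrophils, so the CD11b+ gate does not select microglia alone. Tissue and genotype differed together between RasV12 and control, so an effect of the oncogene and of the tissue of origin cannot be told apart. Whether the 3 libraries of a group stand for 3 animals is not stated in the labels, and the spread behind each p-value may therefore be technical in part.

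Microglia settle in the brain during embryonic life and hold their identity through signals of the tissue, among them TGF-beta and ligands of the Csf1 receptor, and through transcription factors such as PU.1, Sall1 and Mef2c. Sall1 is a zinc finger repressor found in microglia but not in other macrophages, and Mef2c is a MADS box factor shared with neurons, endothelium and lymphocytes. Tmem119 is a transmembrane protein used as a microglia marker, Siglech is a sialic acid-binding lectin of microglia and plasmacytoid dendritic cells, and Slc2a5 is the fructose transporter GLUT5. Selplg encodes PSGL-1, the selectin ligand carried by leukocytes in general. Olfml3, Sparc and Cst3 encode secreted proteins, an olfactomedin-like glycoprotein, a collagen-binding matricellular protein and the protease inhibitor cystatin C, and the last 2 of them are also made by other cells of the brain.

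The members lay on 8 chromosomes (GRCm38, GENCODE annotation). Tmem119 (chromosome 5, 113793729 to 113800516, minus strand) and Selplg (chromosome 5, 113818536 to 113832644, minus strand) were neighbours, 18019 bases apart, with 1 processed pseudogene between them. Siglech (chromosome 7, 55768178 to 55778925, plus strand), Sall1 (chromosome 8, 89027235 to 89044162, minus strand), Mef2c (chromosome 13, 83504034 to 83667080, plus strand) and Slc2a5 (chromosome 4, 150119283 to 150144169, plus strand) lay on other chromosomes. So did Olfml3 (chromosome 3, 103722222 to 103738001, minus strand), Sparc (chromosome 11, 55394500 to 55423183, minus strand) and Cst3 (chromosome 2, 148871722 to 148875692, minus strand). All 9 are protein-coding, and no exon of theirs overlapped an exon of another annotated gene. The library kit does not mark strand.

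RefSeq promoter windows of GRCm38.p6, from 250 bases before to 50 after a start site, were matched for 7 of the 9 members in 11 windows. The letters GAGGAA, the core bound by PU.1, were searched on both strands, where the other strand reads TTCCTC. They stood in 4 of the 11 windows and in 28.3% of all 32851 windows of the same length. The letters TAAAAATA, a form of the MEF2 site, stood in 0 of the 11 and in 2.7% of all windows. The windows below belong to Siglech, Cst3 and Mef2c, which held a GAGGAA match, and to Sparc, which held none and, with Cst3, passed the test in CD11b+ cells. Capitals mark the match, which begins at position -4 in Siglech, -230 in Cst3 and -122 in the first of 3 Mef2c windows. Windows are chr7:55767934-55768233 (plus strand) for Siglech, chr2:148875463-148875762 (minus) for Cst3, chr13:83503784-83504083 (plus) for Mef2c and chr11:55420031-55420330 (minus) for Sparc.
Siglech: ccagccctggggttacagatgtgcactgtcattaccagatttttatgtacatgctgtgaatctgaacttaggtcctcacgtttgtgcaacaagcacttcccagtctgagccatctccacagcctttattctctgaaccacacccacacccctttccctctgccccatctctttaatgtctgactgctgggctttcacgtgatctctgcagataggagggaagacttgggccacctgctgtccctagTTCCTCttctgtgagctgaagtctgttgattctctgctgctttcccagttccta
Cst3: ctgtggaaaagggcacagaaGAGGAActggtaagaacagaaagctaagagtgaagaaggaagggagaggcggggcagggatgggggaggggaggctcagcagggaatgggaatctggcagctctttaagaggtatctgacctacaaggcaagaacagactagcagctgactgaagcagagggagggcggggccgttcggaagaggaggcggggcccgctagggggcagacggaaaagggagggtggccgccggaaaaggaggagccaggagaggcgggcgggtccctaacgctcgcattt
Mef2c: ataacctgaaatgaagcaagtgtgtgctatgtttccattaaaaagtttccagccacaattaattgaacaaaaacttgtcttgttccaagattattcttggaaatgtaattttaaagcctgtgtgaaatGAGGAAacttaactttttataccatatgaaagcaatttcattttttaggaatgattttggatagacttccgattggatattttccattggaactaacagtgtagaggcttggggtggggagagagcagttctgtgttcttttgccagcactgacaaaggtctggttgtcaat
Sparc: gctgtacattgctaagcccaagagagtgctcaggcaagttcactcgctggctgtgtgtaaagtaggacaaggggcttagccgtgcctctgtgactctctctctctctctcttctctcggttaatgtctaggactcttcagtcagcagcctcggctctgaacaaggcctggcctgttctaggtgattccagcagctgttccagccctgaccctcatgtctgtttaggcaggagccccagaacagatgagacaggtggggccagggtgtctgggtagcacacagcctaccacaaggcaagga
The Siglech window held 2 CpG dinucleotides and 50% G and C, and that of Mef2c held 1 and 35.7%. The Cst3 window held 13 CpG dinucleotides and 60.3%, against a median of 7 and 52.7% over all windows. A match describes the letters in the window only.

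The GFP+ libraries held 18519240 to 34432725 reads and those of Control CD11b+ 7883870 to 34601205. In RasV12 CD11b+ the totals were 3642570, 2951629 and 23589310, so that 1 read was worth 4.456 and 5.538 normalized counts in libraries 1 and 2 and 0.6006 in library 3. Replicates of RasV12 CD11b+ correlated with r of 0.512 to 0.537 across genes, less than the 0.657 to 0.887 of Control CD11b+. A reference rate was taken from 1522 olfactory, vomeronasal and taste receptor genes, which serve sensory neurons outside the brain. Control CD11b+ 1 and 3 had 4.626 and 4.754 normalized counts per kb of exon in these genes, and Control CD11b+ 2 had 37.69. The rate was 59.063 to 90.106 in the 3 RasV12 CD11b+ libraries. In GFP+ libraries it was 0.852 to 3.435. Levels below are normalized counts, log2 fold changes are on the log2(normalized count + 1) scale with their SE, and adjusted p-values are limma's with Benjamini-Hochberg adjustment over all tested genes.

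In CD11b+ cells the question was whether phagocytes of the tumor carried the same amount of microglia identity transcripts as those of control cerebellum. All 9 members had a lower mean in RasV12 CD11b+ than in Control CD11b+ libraries, by 2.28-fold for Olfml3 to 9.49-fold for Selplg, and a fitted change below 0, which 38.2% of all tested genes had. Cst3 and Sparc fell past the threshold of adjusted p 0.05, which 2.39% of all tested genes passed in the lower direction, and 5 members had an unadjusted p under 0.05 with a lower value, against 9.33% of all genes. In 7 of the 9 members every RasV12 library lay below every control library, against 8.59% of all tested genes, and Olfml3 and Slc2a5 overlapped. The members' median log2 fold change was -2.28, against 0.74 over all tested genes. These medians and the 38.2% are without subtraction of the background described below. After that subtraction the median over all genes was -0.55, so a share above 38.2% of them then had a change below 0. In bulk libraries fewer microglia among the sorted cells and less of the transcript per cell cannot be told apart. Together the members took 2.33%, 1.70% and 2.71% of the Control CD11b+ libraries and 0.428%, 0.340% and 0.427% of the RasV12 CD11b+ libraries.

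**Figure D1:**
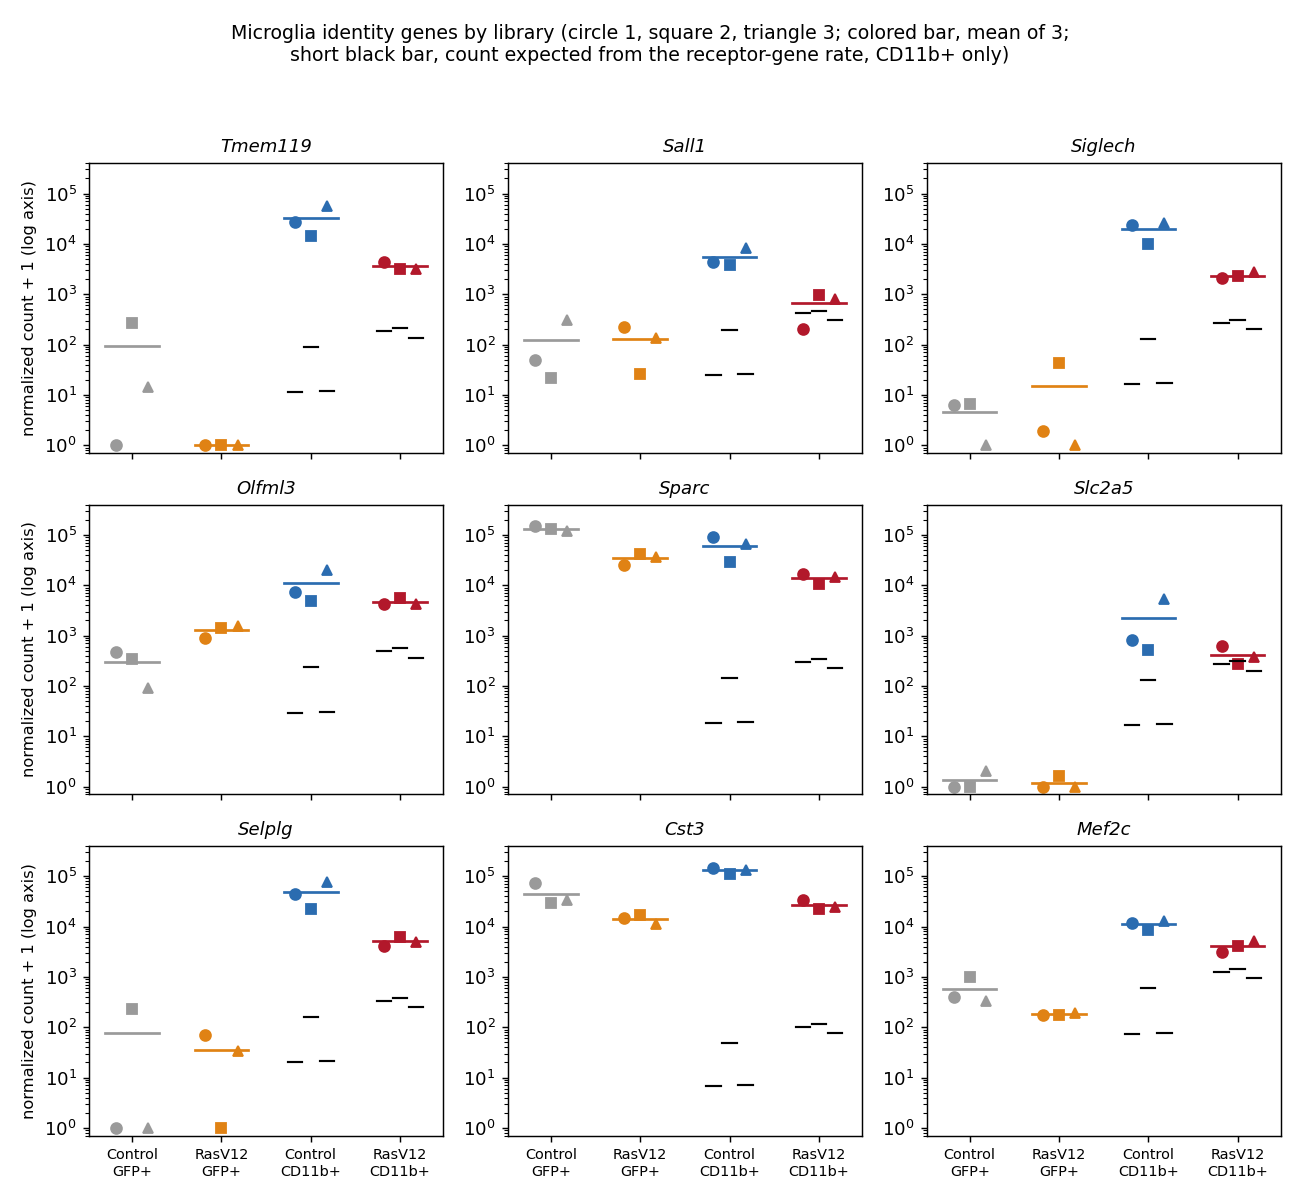
Normalized count + 1 (log axis) of each of the 9 members in the 12 libraries, by group; symbols are libraries 1 to 3, colored bars are means of 3, and short black bars give the count expected from the receptor-gene rate in CD11b+ libraries. Cst3 and Sparc lie far above that mark in every CD11b+ library, while Sall1 and Slc2a5 lie near it in RasV12 CD11b+.

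Among the secreted proteins, Cst3 measured 147002, 108183 and 134149 normalized counts in Control CD11b+ libraries 1 to 3 and 33684.9, 22584.6 and 24455.1 in RasV12 CD11b+. The groups were far apart, and the mean fell 4.82-fold (log2 fold change -2.28 ± 0.28, adjusted p = 0.00165). Sparc measured 89102.9, 28428.8 and 66663.8 in controls and 16969.4, 10439.4 and 14521.1 in RasV12 CD11b+. Its lowest control, library 2, was still above the highest RasV12 library, and it fell 4.39-fold (log2 fold change -2.01 ± 0.33, adjusted p = 0.00756). Olfml3 measured 7331.7, 4747.9 and 20379.8 in controls and 4251.3, 5676.6 and 4301.9 in RasV12 CD11b+. Control library 2 lay inside the RasV12 range, and the change did not pass (log2 fold change -0.92 ± 0.61, adjusted p = 0.341). A fit of the 6 CD11b+ libraries alone called 0 genes of 29835 in limma, with 6845 at an unadjusted p under 0.05, and there Cst3 and Sparc each had an adjusted p of 0.118. edgeR and DESeq2 on the recovered reads of all 12 libraries called 2 and 4 members lower, with 404 and 1066 of 29835 genes lower. Leaving out RasV12 CD11b+ 1 and 2, the shallow libraries, leaves 1 library in that group, which is assumed to vary like the other groups. The Sparc change was then -1.93 with an adjusted p of 0.0808 and that of Cst3 was -2.40 with 0.0205.

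Among the surface proteins, Tmem119 and Selplg had the largest ratios of means of the 9 members and a wide spread among controls. Tmem119 measured 27773.9, 14554.9 and 55900.6 normalized counts in Control CD11b+ and 4429.5, 3118.0 and 3162.6 in RasV12 CD11b+. Selplg measured 43686.1, 22380.2 and 77684.8 against 4064.1, 6202.7 and 4873.6. In both genes the lowest control library was more than 3 times as high as the highest RasV12 library, with mean ratios of 9.17 for Tmem119 and 9.49 for Selplg. Siglech measured 23267.4, 10012.1 and 26057.0 in controls and 2081.1, 2254.0 and 2726.6 in RasV12 CD11b+, a mean ratio of 8.40 with no overlap. None of these 3 passed the adjusted threshold: the log2 fold changes were -3.005 ± 1.45 for Tmem119 (adjusted p = 0.202), -3.09 ± 1.85 for Selplg (adjusted p = 0.293) and -2.96 ± 1.25 for Siglech (adjusted p = 0.155). The 4 groups shared 1 estimate of the spread for each gene, and in the GFP+ libraries Tmem119 ran from 0 to 268.7 and Selplg from 0 to 224.6, which entered these SEs. Slc2a5 measured 833.3, 508.9 and 5283.5 in controls and 606.1, 271.4 and 373.6 in RasV12 CD11b+. Control CD11b+ 2 lay inside the RasV12 range, and the change did not pass (log2 fold change -1.73 ± 1.11, adjusted p = 0.325).

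Of the transcription factors, Sall1 measured 4320.0, 3891.7 and 8236.0 normalized counts in Control CD11b+ and 200.5, 969.2 and 807.8 in RasV12 CD11b+. The groups did not overlap and the means differed 8.32-fold, the log2 fold change being -3.26 ± 1.04 (adjusted p = 0.0802). Mef2c measured 11900.2, 8389.6 and 12831.8 in controls and 3172.9, 4042.9 and 5258.0 in RasV12 CD11b+. Its groups did not overlap either, with a mean ratio of 2.66 and a log2 fold change of -1.42 ± 0.45 (adjusted p = 0.0801). Sall1 passed with a pseudocount of 5 (adjusted p = 0.0466), with upper-quartile rescaling (0.0460) and in DESeq2 (0.0331), over a range of 0.0331 to 0.337 in 24 alternatives. Mef2c passed in 5 of 24 alternatives, over a range of 0.0331 to 0.370, among them the fit without Control CD11b+ 2 (adjusted p = 0.0452).

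The raised receptor-gene rate of the RasV12 CD11b+ libraries bears on the low members. That rate is pooled over the receptor genes, and single genes can lie away from it. Ngp, Ecscr and Ly6g had no read in RasV12 CD11b+ 3, for example. The expected count of any 1 gene, and values after its subtraction, are therefore uncertain to a degree that was not tested. In RasV12 CD11b+ 1 Sall1 rested on 45 reads and was 0.483 times the count expected for its exon length, and in libraries 2 and 3 it was 2.04 and 2.60 times that count. Slc2a5 was 2.26, 0.885 and 1.86 times the expected count, so each of these 2 genes was below the expected count in 1 RasV12 library. Mef2c was 2.56 to 5.67 times, Siglech 7.39 to 13.6 times, Olfml3 8.76 to 11.8 times, Selplg 12.1 to 19.3 times and Tmem119 14.9 to 24.3 times the expected count. Sparc stood at 30.6 to 64.9 times and Cst3 at 198 to 338 times. Control CD11b+ 2, the control library with a raised rate, was the lowest control for 9 of 9 members, and Control CD11b+ 3 was the highest for 7. With the expected count subtracted, the change of Cst3 was -2.285 (adjusted p = 0.00298) and that of Sparc -2.04 (adjusted p = 0.0130), while Mef2c reached -1.91 ± 0.51 (adjusted p = 0.0426). After subtraction 8 of the 9 members did not overlap in the lower direction, Slc2a5 now among them, against 13.5% of genes. Sall1 then had a log2 fold change of -6.34 ± 2.27 (adjusted p = 0.111), with RasV12 CD11b+ 1 set to 0.

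Expression of the members was next set against Ptprc, the gene of the leukocyte surface phosphatase CD45, to scale each CD11b+ library by its own leukocyte RNA. Ptprc measured 9032.0, 5867.5 and 8632.4 normalized counts in Control CD11b+ and 5360.9, 8789.1 and 5256.2 in RasV12 CD11b+. Its groups overlapped (log2 fold change -0.30 ± 1.10, adjusted p = 0.885), with a mean 1.21 times as high in controls. The 12 pan-leukocyte and myeloid genes that were tested, Ptprc and Itgam among them, had a median log2 fold change of -1.62, and those other than Ptprc had -1.36 relative to it, so a lower level relative to Ptprc was not confined to the members. The neutrophil genes had medians of -3.57 and -3.28 on the same scales. Itgam, the gene of the sorted marker, measured 5009.8, 5084.6 and 5256.1 against 1350.2, 1356.8 and 3101.3, without overlap and without passing the test (log2 fold change -1.52 ± 0.86, adjusted p = 0.269). Itgam shares 3450 bases of exon with the annotated gene Gm49368, so its reads are less certain.

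Relative to Ptprc, all 9 members again had a lower mean in RasV12 CD11b+ libraries, and a fitted change below 0, as did 33.7% of genes. Tmem119 was 308%, 248% and 648% of the Ptprc count in Control CD11b+ libraries 1 to 3 and 82.6%, 35.5% and 60.2% in RasV12 CD11b+. Its count was above that of Ptprc in controls and below it in RasV12 CD11b+. Selplg was 484%, 381% and 900% against 75.8%, 70.6% and 92.7%, and Siglech was 258%, 171% and 302% against 38.8%, 25.6% and 51.9%. The counts of both crossed that of Ptprc in the same way. Ptprc has 18313 exon bases and Tmem119 has 2315, so equal counts are not equal levels per length. Per length, Tmem119, Selplg and Siglech stayed above Ptprc in RasV12 CD11b+, with mean FPKM of 92.5, 70.9 and 41.7 against 21.2. Sall1 was 47.8%, 66.3% and 95.4% against 3.74%, 11.03% and 15.4%. Cst3 stayed above Ptprc throughout, at 1628%, 1844% and 1554% in controls and 628%, 257% and 465% in RasV12 CD11b+. Sparc did so too, at 987%, 485% and 772% against 317%, 119% and 276%. Mef2c was 132%, 143% and 149% against 59.2%, 46.0% and 100.03%. For these 7 members the groups did not overlap, against 6.73% of all tested genes in the lower direction.

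Olfml3 and Slc2a5 overlapped between groups on this scale as well. Olfml3 was 81.2%, 80.9% and 236% of Ptprc in Control CD11b+ and 79.3%, 64.6% and 81.8% in RasV12 CD11b+. Slc2a5 was 9.23%, 8.67% and 61.2% against 11.3%, 3.09% and 7.11%. In both, Control CD11b+ 3 alone stood above the RasV12 libraries.

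**Figure D2:**
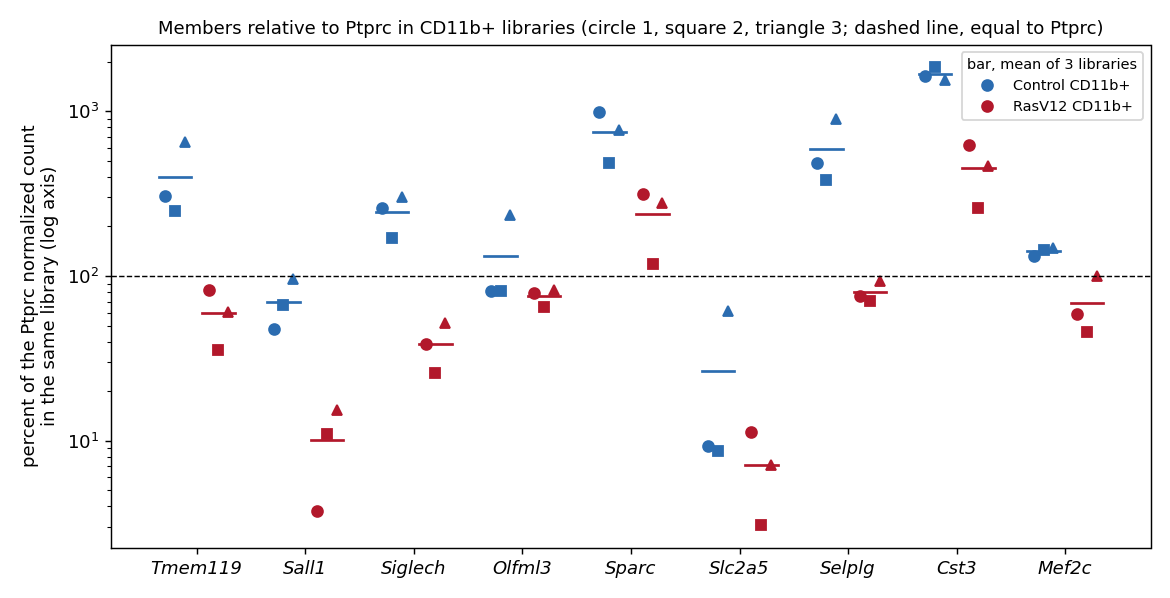
Normalized count of each member as a percent of the Ptprc normalized count in the same library (log axis), in the 6 CD11b+ libraries; symbols are libraries 1 to 3, bars are means of 3 and the dashed line marks equality with Ptprc. Tmem119, Siglech and Selplg lie above the line in controls and below it in RasV12 CD11b+, and Cst3 and Sparc lie above it in both. The line marks equal counts, not equal levels per length.

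In a fit of these ratios over all genes in the 6 CD11b+ libraries, limma called 0 members. It called 0.0369% of genes in either direction, and 7 members had an unadjusted p under 0.05 with a lower value, against 4.85% of all genes. edgeR called 0 members on this scale, with 0 of all genes called and 4134 at an unadjusted p under 0.05. DESeq2 called 4 members lower, with 364 of 29834 genes lower and 1933 higher. The lowest adjusted p was that of Selplg, 0.0586, with a log2 fold change of -2.80 ± 0.44. Sall1 had -2.96 ± 0.65 (adjusted p = 0.125), Tmem119 -2.71 ± 0.51 (adjusted p = 0.109) and Siglech -2.67 ± 0.48 (adjusted p = 0.1). Cst3 had -1.99 ± 0.40 (adjusted p = 0.123), Sparc -1.72 ± 0.47 (adjusted p = 0.125) and Mef2c -1.12 ± 0.46 (adjusted p = 0.191). Slc2a5 had -1.43 ± 0.88 (adjusted p = 0.346), and the smallest change was that of Olfml3, -0.63 ± 0.52 (adjusted p = 0.488). The members' median was -1.99, against 1.04 over all genes, both without background subtraction. The median over all genes was 0.038 after it. Without Control CD11b+ 2, Tmem119 (adjusted p = 0.0234), Siglech (0.0170), Selplg (0.0165) and Sall1 (0.0378) passed in limma, where 342 of all genes were lower and 4819 higher.

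Ptprc itself was 3.71 to 5.33 times its expected count in RasV12 CD11b+ libraries, closer to the receptor-gene rate than 6 of the members. With the expected counts subtracted from both genes, Tmem119 was 310%, 279% and 654% of Ptprc in controls and 108%, 40.8% and 72.5% in RasV12 CD11b+. Cst3 was then 1643%, 2089% and 1570% against 857%, 315% and 584%. After that subtraction 7 members still did not overlap, against 11.0% of genes, and limma again called 0 members.

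Expression per length, in FPKM, placed the members in nearly the same order in both kinds of CD11b+ library. Cst3 led with 6149 ± 937 FPKM (SD, n = 3) in Control CD11b+ and 1275 ± 282 in RasV12 CD11b+, apart from the next gene in both. Sparc followed with 972 ± 486 and 221 ± 52.2, then Tmem119 with 848 ± 547 and 92.5 ± 19.3 and Selplg with 673 ± 392 and 70.9 ± 15.2. In controls no neighbours in the order below Cst3 were separated by their ranges. Siglech came next in controls with 351 ± 152 FPKM and came after Olfml3 in RasV12 CD11b+, where Olfml3 had 46.2 ± 7.88 and Siglech 41.7 ± 5.89, with overlapping ranges. Sall1, Mef2c and Slc2a5 were lowest in both groups, at 39.0 to 62.4 mean FPKM in controls and 7.37 to 15.9 in RasV12 CD11b+.

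The comparison of CD11b+ with GFP+ cells asked which members marked the phagocyte gate. In controls 8 members rose in CD11b+ over GFP+ cells, against 19.3% of all tested genes, and Sparc was lower, against 6.91%. Slc2a5 had 1 read in the 3 Control GFP+ libraries together, and its ratio was 12510 with a 95% counting interval of 2244 to 494019. Siglech was 0 to 5.6 normalized counts in Control GFP+, a ratio of 5551, Selplg had a ratio of 821.5 and Tmem119 of 460.5. These ratios set pooled reads against pooled depth, and intervals and floors cover counting error only. Tmem119 in Control GFP+ rested on library 2 with 268.7 normalized counts, where Selplg was also highest at 224.6, against 0 and 13.2 for Tmem119 and 0 and 0 for Selplg in the others. Sall1 ran from 20.9 to 301.1 and Mef2c from 325.5 to 982.4 in Control GFP+, and both were higher in CD11b+ (log2 fold changes 6.23 ± 1.04 and 4.43 ± 0.45, adjusted p = 0.00129 and 4.34e-05). Cst3 was 71866.3, 28707.8 and 33297.2 in Control GFP+ and rose 2.91-fold in CD11b+ (adjusted p = 0.00150). Sparc was 151101, 128062 and 118878 in Control GFP+, above every Control CD11b+ library, with a log2 fold change of -1.26 ± 0.33 (adjusted p = 0.0150). The Sparc call held in 18 of 24 alternatives, with adjusted p of 0.00686 to 0.105. It was lost in edgeR, in DESeq2, in the 6-library fit, with equal totals and after background subtraction. It was also lost without Control GFP+ 1 (adjusted p = 0.0505 in limma). After subtraction of the expected counts Sall1 missed the threshold (adjusted p = 0.104), and Cst3 did so in edgeR (adjusted p = 0.124).

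In tumors 7 members rose in CD11b+ over GFP+ cells, against 29.8% of genes, and Sparc was again lower, against 10.2% (log2 fold change -1.30 ± 0.33, adjusted p = 0.00870). These shares of all genes depend on the processing: 8896 genes were higher and 3057 lower, but 2791 and 5938 after background subtraction and 1536 and 3156 in edgeR. Tmem119 had no read in any RasV12 GFP+ library and was at least 7422-fold higher in RasV12 CD11b+, taking 3 reads in the pooled GFP+ libraries as the floor. Siglech had a ratio of 238.8 and Selplg of 135.7, and Slc2a5, with 1 read in RasV12 GFP+, had a ratio of 2634 with an interval of 471 to 104151. Slc2a5 was only 2.26, 0.885 and 1.86 times the expected count in RasV12 CD11b+. Its limma call was lost after subtraction of the expected counts (adjusted p = 0.0725). Mef2c was 173.4 to 189.6 in RasV12 GFP+ and had a log2 fold change of 4.50 ± 0.45 (adjusted p = 8.18e-05). Olfml3 rose by 1.90 ± 0.61 on the log2 scale (adjusted p = 0.0262) and Cst3 by 0.92 ± 0.28 (adjusted p = 0.0216). Olfml3 kept its call in 16 of 24 alternatives and lost it without RasV12 GFP+ 1, 2 or 3 (adjusted p = 0.0887, 0.0559 and 0.0501) or without RasV12 CD11b+ 2 (0.0709). Olfml3 also lost it in edgeR, with upper-quartile rescaling and after background subtraction, and its change ran from 0.55 to 2.05 over the alternatives. Cst3 kept its call in 14 of 24, lost it without RasV12 GFP+ 3 (0.0897) or RasV12 CD11b+ 1 (0.0848), and turned direction in edgeR with TMM, at -0.38. Cst3 also lost it in DESeq2, in FPKM, with no filter, with upper-quartile rescaling, with equal totals and after background subtraction. Without RasV12 CD11b+ 1 and 2 together the adjusted p was 0.110 for Sparc and 0.0711 for Selplg. Sall1 did not pass in tumors: it was 227.2, 25.2 and 134.1 in RasV12 GFP+ and 200.5, 969.2 and 807.8 in RasV12 CD11b+, with overlap (log2 fold change 2.54 ± 1.04, adjusted p = 0.0669). Sall1 passed without Control GFP+ 2 (adjusted p = 0.0465) or 3 (0.0400), without RasV12 CD11b+ 1 (0.0399) and in DESeq2 (0.0460), and its value was -0.18 after subtraction of the expected counts.

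In GFP+ cells RasV12 against control changed 3 members. Sparc measured 25014, 41643 and 37103.5 in RasV12 GFP+, below every Control GFP+ library (3.84-fold, log2 fold change -1.97 ± 0.33, adjusted p = 0.00313). Cst3 measured 14444.3, 17123.2 and 11146.3, again below every control, and fell 3.13-fold (log2 fold change -1.55 ± 0.28, adjusted p = 0.00534). Both passed in the lower direction, which 2.65% of tested genes did. Olfml3 went the other way, from 468.0, 340.8 and 91.6 in Control GFP+ to 908.6, 1410.7 and 1550.0 in RasV12 GFP+. Its groups did not overlap, as for 17.2% of genes in the higher direction, and it rose 4.30-fold (log2 fold change 2.36 ± 0.61, adjusted p = 0.0347), as did 4.14% of genes. The Cst3 change missed the threshold when libraries were rescaled to equal totals (-0.80, adjusted p = 0.117). In edgeR none of the 3 passed, with adjusted p of 0.0960 for Sparc, 0.112 for Cst3 and 0.117 for Olfml3, while Tmem119 did (0.0261). Olfml3 passed in 11 of 24 alternatives, and leaving out any of the RasV12 GFP+ libraries, Control GFP+ 2 or 3, or Control CD11b+ 1 took it over the threshold, to adjusted p of 0.0512 to 0.118. Mef2c was lower without overlap, 173.4 to 189.6 against 325.5 to 982.4, and did not pass (log2 fold change -1.48 ± 0.45, adjusted p = 0.0700). It passed without Control GFP+ 3 (adjusted p = 0.0474). Sparc, Cst3 and Mef2c were the 3 members lower without overlap, against 10.9% of genes. Tmem119 had a log2 fold change of -3.97 (adjusted p = 0.134) with no read in RasV12 GFP+, and passed without Control GFP+ 1 (-5.95, adjusted p = 0.00632) and in DESeq2 (4.59e-06). Control GFP+ 2 held 335 of the 348 reads of Tmem119 in its group, and without that library the change was -1.91 and did not pass. Siglech was at most 5.6 normalized counts in GFP+ libraries other than RasV12 GFP+ 2, where it was 41.3, and Slc2a5 was at most 1. Selplg was 224.6 in Control GFP+ 2, 68.6 and 32.9 in RasV12 GFP+ 1 and 3 and 0 in the others, and Sall1 overlapped between the groups.

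**Figure D3:**
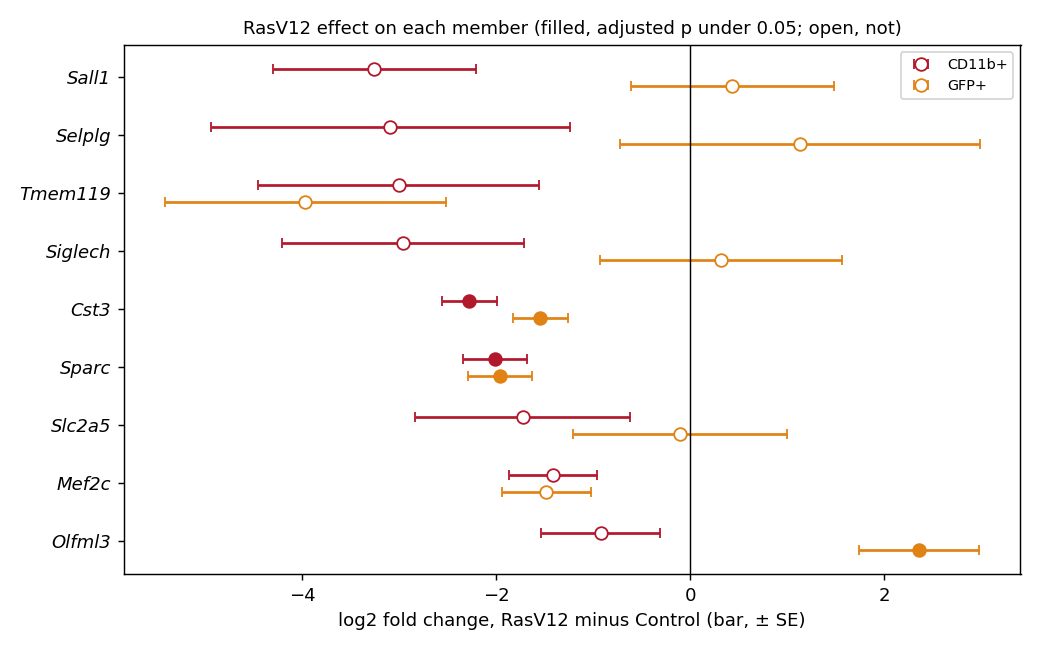
Log2 fold change of each member, RasV12 minus control, in CD11b+ cells and in GFP+ cells, with bars of 1 SE on each side; filled points passed the adjusted threshold. All 9 points of CD11b+ cells lie below 0, and Olfml3 is the member whose filled GFP+ point lies above 0.

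The difference of the RasV12 effects, CD11b+ minus GFP+, was called in Olfml3 alone of the members (-3.28 ± 0.87, adjusted p = 0.0496), against 2.34% of genes in the lower direction. It passed in 7 of 23 alternatives. It still passed without Control GFP+ 1 (adjusted p = 0.0333) or Control CD11b+ 2 (0.0287), and leaving out any of the other 10 libraries ended the call, with adjusted p of 0.0579 to 0.135. Sparc fell in both populations, with log2 fold changes of -2.01 and -1.97 and a difference of -0.05 ± 0.47 (adjusted p = 0.973). Cst3 had a difference of -0.73 ± 0.40 (adjusted p = 0.344) and Mef2c of 0.07 ± 0.64 (adjusted p = 0.972). The differences of Sall1, -3.69 ± 1.48, Siglech, -3.28 ± 1.76, and Selplg, -4.22 ± 2.62, did not pass.

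Other lists were read beside the members in CD11b+ cells. Of all tested genes, 2.97% rose and 2.39% fell there. Of 15 tested genes of the wider microglia signature, 4 fell and 0 rose, with a median log2 fold change of -2.69, and edgeR and DESeq2 called 2 and 5 lower. They were Cmtm6, a protein that keeps PD-L1 at the membrane (-3.08 ± 0.66, adjusted p = 0.0206), Ecscr (-8.05 ± 1.82, adjusted p = 0.0254), the Golgi protein gene Golm1 (-2.69 ± 0.70, adjusted p = 0.0421) and the purinergic receptor gene P2ry13 (-3.83 ± 1.003, adjusted p = 0.0434). Ecscr had no read in RasV12 CD11b+ 2 and 3, and its fitted value depends on the pseudocount. The 15 genes that regulate microglia identity summed to 50993.1 to 101963 normalized counts in controls and 20160.2 to 28331.1 in RasV12 CD11b+. Of these, Mef2a (-1.54 ± 0.34, adjusted p = 0.0240) and the TGF-beta receptor gene Tgfbr2 (-4.12 ± 1.09, adjusted p = 0.0450) fell. Itgb8, the integrin subunit with which other brain cells free active TGF-beta, rose from 106.8 to 746.9 normalized counts in controls to 1542.9 to 1739.0 (2.64 ± 0.70, adjusted p = 0.0444). Of these 15 genes edgeR called 0, and DESeq2 called 2 higher and 3 lower. After background subtraction 3 were lower and 0 higher, so the Itgb8 call was lost. Mef2a, a relative of Mef2c, measured 9349.4, 6711.7 and 11713.9 in controls and 2606.9, 2890.9 and 3930.7 in RasV12 CD11b+.

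Markers of other cell types moved in these libraries too. The summed level of 12 pan-leukocyte and myeloid genes ran from 74597.7 to 263715 in controls and from 36673.6 to 74691 in RasV12 CD11b+, with 0 of 12 called by limma, edgeR or DESeq2 and 2 lower at an unadjusted p under 0.05. The sum of 10 border macrophage genes was 10266.6 to 24039.6 against 3373.5 to 5416.5, and Lyve1 of these fell. Of 10 tested neutrophil genes Camp, Ngp and S100a9 fell, and the summed level of all 11 was 20154.5 to 41160.9 against 3582.8 to 5078.4, with Ly6g and Elane without reads in RasV12 CD11b+. Monocyte and recruited macrophage genes summed to 5057.8 to 21011.3 in controls and 14563 to 24151.5 in RasV12 CD11b+, where 1 of 13, Fn1, rose. They summed to 22505.5 to 41935 in RasV12 GFP+. Fn1 was 24099.9, 8705.2 and 13589.1 there, against 3885.9, 3588.7 and 9196.5 in RasV12 CD11b+. In edgeR and after background subtraction 0 of these 13 were called, and DESeq2 called 2 higher. Lymphocyte genes summed to 201.5 to 1157 against 908.8 to 3826.9, with 0 of 9 called by limma, edgeR or DESeq2 and 2 higher at an unadjusted p under 0.05. The receptor-gene rate was raised in the same RasV12 CD11b+ libraries. The part of these markers in the lower level of the members was not tested.

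Astrocyte genes summed to 6065 to 9661.8 normalized counts in controls, against 9144.9 to 14017.1 in RasV12 CD11b+, with Gfap, Gja1 and Slc4a4 higher and Gdf10 lower of 11. Endothelial and pericyte genes summed to 782.3 to 3201.7 against 5828.9 to 8440.2, with Kdr and Slco1a4 higher of 10. In edgeR 0 genes of either list were higher, and DESeq2 called 3 astrocyte and 4 endothelial genes higher. After background subtraction 1 astrocyte gene was higher and 1 lower, and 2 endothelial genes were higher and 1 lower. The same lists summed to 36719 to 96938.4 and 5456.6 to 7922.8 in RasV12 GFP+, so the endothelial sum of RasV12 CD11b+ was about that of the GFP+ tumor cells. Sparc and Cst3, which those cell types also make, were lower than in controls both in RasV12 CD11b+ and in RasV12 GFP+. The part of those cell types in the level of Sparc and Cst3 was not tested. Of 7 plasmacytoid dendritic cell genes, a type that also carries Siglech, 0 were called by limma, edgeR or DESeq2. At an unadjusted p under 0.05 in limma 1 was higher, and after background subtraction 1 was called lower. Their sum was 4418 to 6530.6 against 6019.9 to 7249.4. It was 6021.5 to 6669.3 in Control GFP+ and 9394.2 to 11180 in RasV12 GFP+, so it was not confined to CD11b+ cells. Oligodendrocyte genes summed to 13381.1 to 15642.9 against 5668.8 to 9503.4, and neuron genes to 1513.4 to 4445.5 against 4214.8 to 7664.9, where Syt1 rose and Pcp2 and Nefl fell.

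**Figure D4:**
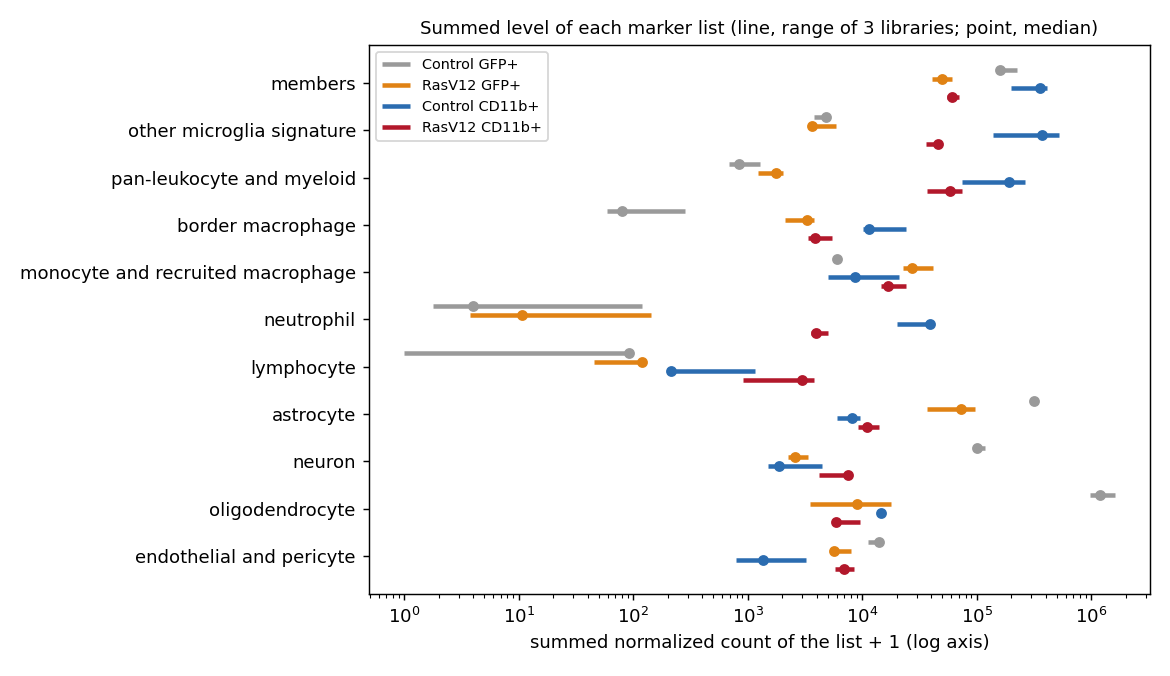
Summed normalized count + 1 (log axis) of the members and of 10 other gene lists in the 4 groups; lines span the lowest and highest of 3 libraries and points are medians. The members, the wider microglia signature, border macrophage, neutrophil and oligodendrocyte genes lie lower in RasV12 CD11b+ than in Control CD11b+, without overlap.

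Over the 12 libraries, log2 levels of the members other than Sparc were positively correlated with each other, with Pearson r of 0.40 to 0.98. Sparc had negative r with 7 of the other 8 members, from -0.51 with Olfml3 to -0.22 with Mef2c, and 0.40 with Cst3. The points share the contrast between CD11b+ and GFP+ libraries and the depth of each library. By the same measure Tmem119 was most like Mef2c (r = 0.980), Cmtm7 (0.978), Rasal3 (0.978), H2-Oa (0.977) and Themis2 (0.975). Siglech was most like Ighm (0.989), Capn3 (0.982), Dennd1c (0.981) and P2ry13 (0.980).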

How the data were processed

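RNA of 12 libraries was read with the SMARTer and Nextera XT kits, per the labels' protocols. The submitters' processing notes name the build GRCm38.p6 and the tools DESeq2 1.20.0, Subread 1.6.2 with featureCounts, HISAT2 2.1.0 and bcl2fastq 2.17.1.14, without their roles. Gene-level normalized counts (signal: reads over a library's own factor) and equally scaled FPKM values were deposited. Whole reads were recovered, since at least 99.96% of the deposited normalized counts in each library were multiples of the worth of 1 read (tolerance 0.06 normalized counts). The least whole was Control GFP+ 3.

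Genes with at least 10 normalized counts in at least 3 libraries were tested with limma-trend, from limma 3.58.1 in R 4.3.3. The fit of log2(normalized count + 1) had 4 group means over 12 libraries and Benjamini-Hochberg adjustment at 0.05. The log scale understates changes of low genes. For values relative to Ptprc, the log2 value of Ptprc was subtracted in the 6 CD11b+ libraries. The expected count of a gene was the receptor-gene rate of the library multiplied by its exon length. edgeR 4.0.16 with TMM and DESeq2 1.42.0 on recovered reads were alternatives, as were other pseudocounts, filters, scalings, the FPKM table with 0.1 added, 6-library fits, the replicate number as a block, background subtraction and leaving out libraries. The pipeline was tested on simulated data. A ratio of pooled reads has a 95% interval from an exact binomial test. The members and lists were chosen with earlier results of these data known. The text names all members, Ptprc and Itgam, up to 4 genes per list with the smallest adjusted p in CD11b+ cells, and the 5 genes most like Tmem119 and Siglech with a mean of at least 100 in their highest group. Of the genes this rule names, 2 are not reported here.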

Additional observations from a re-analysis of the deposited data

Results flagged for a closer look

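The RasV12 effect on Olfml3 differed between the sorted populations by -3.28 ± 0.87 on the log2 scale (CD11b+ minus GFP+, adjusted p = 0.0496 in limma). Olfml3 was higher in 3 of 3 RasV12 GFP+ libraries than in every Control GFP+ library. It overlapped between groups in CD11b+ cells, where the mean of RasV12 was lower. The difference stayed below 0 in all 23 alternatives, from -4.35 to -2.58, and passed the threshold in 7 of them, with adjusted p of 0.00909 to 0.136.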

How the results depend on the processing

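Of 1224 alternative values for single members, 1089 kept direction and side of the threshold, 65 lost a call, 38 gained one and 32 changed sign. In CD11b+ cells, on either scale, 0 changed sign. The count of members called in CD11b+ cells was 2, and it was 4 with a pseudocount of 5, upper-quartile rescaling or DESeq2, 0 in the 6-library fit and 1 without RasV12 CD11b+ 1 and 2 together. Relative to Ptprc it was 0, with 10 genes higher and 1 lower over all genes. It was 1 with a pseudocount of 5 (18 and 13) or upper-quartile rescaling (15 and 7). In DESeq2 it was 4 (1933 and 364), and it was 0 to 4 with libraries left out in turn. In GFP+ cells it was 3, with 1235 genes higher and 792 lower over all genes. It was 1 in edgeR (684 and 438), 5 in DESeq2 (3276 and 1631) and 1 in the 6-library fit (1642 and 1290). CD11b+ against GFP+ in tumors gave 8, then 5 in edgeR, 5 after background subtraction and 4 without RasV12 CD11b+ 1 and 2. The difference of effects gave 1, then 2 with equal totals or in DESeq2, 0 with a pseudocount of 0.5, no filter, FPKM, background subtraction or without RasV12 CD11b+ 1 and 2, and 0 to 2 with libraries left out in turn. The cause was not tested.

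Same-numbered libraries of RasV12 and control did not deviate together (r of -0.029 to 0.09 in CD11b+ and -0.009 to 0.003 in GFP+). For same-numbered CD11b+ and GFP+ libraries r was 0.005 to 0.028 in RasV12 and 0.001 to 0.038 in controls. Each RasV12 CD11b+ library correlated best with the RasV12 GFP+ library of its number, at these low r. In the other pairings not every library correlated best with its own number. With the replicate number as a block, 6 members were called relative to Ptprc, 2 in CD11b+ cells, 2 in GFP+ cells and 0 in the difference. Relative to Ptprc the block raised the calls over all genes too, from 10 higher and 1 lower to 853 and 352. With the block all genes had 622 higher and 590 lower calls in CD11b+ cells, 1111 and 744 in GFP+ cells and 536 and 637 in the difference.

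Sign changes in GFP+ cells came with libraries left out in Sall1 (-0.40 to 1.497), Siglech (-1.33 to 1.37), Slc2a5 (-0.33 to 0.23) and Selplg (-0.17 to 3.74), and in edgeR (-1.09) and DESeq2 (-1.14) for Selplg. In tumors, CD11b+ against GFP+, they were Sall1 after subtraction (-0.18) and Cst3 in edgeR (-0.38). In the difference of effects, Tmem119 had -0.46 with a pseudocount of 5, -0.29 in FPKM and -1.09 to 2.95 with libraries left out. Sparc had 0.037 without RasV12 CD11b+ 1 and 2 and -0.53 to 0.30 with libraries left out. Mef2c had -0.094 in FPKM, -0.49 with upper-quartile rescaling, -0.84 with equal totals, -0.67 in edgeR, -0.13 after subtraction and -0.42 to 0.38 with libraries left out.

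Over all genes, higher and lower calls in CD11b+ cells were 886 and 713, 559 and 1319 with upper-quartile rescaling, 701 and 857 with equal totals, 623 and 2325 after background subtraction, 30 and 404 in edgeR, 2438 and 1104 with a pseudocount of 5, 1291 and 1066 in DESeq2, and 3745 and 1503 without Control CD11b+ 2. The median log2 fold change of 0.74 became 0.21 with upper-quartile rescaling, 0.59 with equal totals, 0.36 in edgeR, 1.05 in DESeq2, 1.16 without Control CD11b+ 2 and, with its sign turned, -0.55 after background subtraction. Equal totals gave 2296 and 527 in GFP+ cells in place of 1235 and 792. CD11b+ against GFP+ in tumors gave 8896 and 3057, then 6889 and 4312 with upper-quartile rescaling, and more lower than higher calls after background subtraction (2791 and 5938) and in edgeR (1536 and 3156). In controls 5765 and 2061 became 1733 and 1932 after background subtraction and 2911 and 1702 in edgeR. Relative to Ptprc, 10 and 1 became 4819 and 342 without Control CD11b+ 2. The difference gave 615 and 697, then 508 and 1070 with upper-quartile rescaling, 467 and 1675 with equal totals, 501 and 1919 after background subtraction and 269 and 744 in edgeR. The 6-library fit has no form for the ratio to Ptprc or for the difference, and GFP+ libraries do not enter the Ptprc fit. RasV12 CD11b+ 1 and 2, with few reads, and low members near the receptor-gene rate limit what can be detected.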
